A study of Danio rerio with 16 samples.

Results

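The transcripts described here were those that stood lower in zebrafish primordial germ cells (PGCs) at 24 h post fertilisation (hpf) than at both 7 and 36 hpf. They are 150 of the 34289 Ensembl genes measured. The 2 identifiers *zgc:158463* and *si:dkey-153m14.1*, which took up to 39.1% of a library, were first left out. Expected read counts were then divided by the remaining library total and scaled to CPM, the usual unit of read counts relative to depth. Of 7834 genes with at least 10 CPM in both PGC libraries of 7 hpf, 3064 genes, or 39.1%, had both libraries of 24 hpf below both of 7 hpf and both of 36 hpf. The 150 members were the genes of that order with the largest dip, which is the smaller of the 2 differences from 24 hpf (to 7 or to 36 hpf) in log2(mean CPM + 1). The PGC values of 7, 24 and 36 hpf therefore chose the members. Those values, and the comparisons of PGCs with soma at these stages, are given as descriptions without a test.

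RNA-seq was done on PGCs and on somatic cells (soma) sorted from embryos at 4 hpf (in the blastula), 7 hpf (in the gastrula) and the pharyngula stages of 24 and 36 hpf, with 2 replicates in each of 8 groups. All embryos, those that gave the soma included, carried the kop-EGFP-F-nos3'UTR transgene, in which the germline promoter of *kop* and the untranslated region of *nanos3* place a green fluorescent protein in PGCs. The study's methods also name a cry-DsRed part of this transgene. Both cell types at a stage came from embryos of this line, and the sort rests on that reporter. The study estimated the purity of the sorted PGCs as high and reported strong enrichment of known germ cell markers over soma. Its methods also describe several raising temperatures and, for embryos older than 24 hpf, phenylthiourea against pigment. If the 36 hpf embryos received it, its part cannot be told apart from that of stage. For its plot of germline marker expression, the study calls its 2 replicates biologically independent. No label says whether the replicates came from separate clutches, so p-values measure only the spread between these libraries. Library totals ran from 2825775 to 15633266 expected counts, and the floor of 3 counts used for lower bounds corresponded to between 0.254 and 1.06 CPM.

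Zebrafish PGCs are set aside by germ plasm, a maternally supplied mixture of RNA and protein. Its transcripts are cleared from somatic cells by microRNAs and RNA decay while they are shielded in PGCs by proteins such as Dnd1. Germ plasm proteins include the helicase Ddx4 (Vasa), the translational repressor Nanos3 and Tudor domain proteins that build germ granules. Tudor proteins also serve the piRNA pathway, in which Piwi proteins loaded with small RNAs silence transposons.

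Several libraries stood apart in their markers at each of the stages that chose the members. At 7 hpf the sum of 18 epidermis and enveloping layer markers was 20726 and 10251 CPM in PGC libraries and 1234 and 4071 CPM in soma, and in PGCs of 4 hpf it was 1758 and 1140 CPM. Of these markers 12 reached 10 CPM in both PGC libraries of 7 hpf and 2 were at 0 in both, and the highest was the keratin gene *krt8* at 6483 and 2841 CPM. In the PGC libraries of 24 and 36 hpf this sum was 7194 and 14563 CPM and 5195 and 2657 CPM. The summed level of 17 skeletal muscle markers was 20.8 and 23.7 CPM in the PGC libraries of 7 hpf, 43321 and 64606 CPM in those of 24 hpf, and 1148 and 3391 CPM in those of 36 hpf. In soma of 24 hpf it was 10192 and 61056 CPM. Replicate 1 of these soma libraries is given as PGCs in 1 of its labels and as soma in the others. Its 7 PGC markers summed to 5.78 CPM, and those of replicate 2 to 11.6 CPM. All but 1 of the 17 muscle markers, 16 in all, reached 10 CPM in both PGC libraries of 24 hpf, and none of them was at 0 there. The highest was *myhz1.1*, a fast muscle myosin heavy chain gene, at 10804 and 15866 CPM. Over the same stages the sum of the 7 PGC markers was 6615 and 8967 CPM, then 856 and 546 CPM, then 1330 and 4052 CPM. The muscle markers thus stood highest in the PGC libraries in which the germ cell markers stood lowest. Other somatic sums in PGC libraries of 24 hpf included 3442 and 3788 CPM for notochord and mesenchyme (3063 and 4568 CPM in soma). For neural markers they were 895 and 715 CPM (728 and 896 CPM in soma). Endothelial sums were lower than in soma, at 137 and 109 CPM against 264 and 204 CPM. So were blood sums, at 199 and 155 CPM against 1025 and 621 CPM. Of the 7 PGC markers, 5 are members of the list and moved with it by its choice. The other PGC markers, *ca15b* and *gra*, were not members. Their levels were 574 and 303 CPM at 7 hpf, 68.1 and 26.6 CPM at 24 hpf and 22.6 and 90.9 CPM at 36 hpf for *ca15b*, and 66.7 and 153 CPM, 2.98 and 5.72 CPM and 4.91 and 27.9 CPM for *gra*. Both were below their 7 hpf levels at 24 hpf, and in both the libraries of 36 hpf overlapped those of 24 hpf. The part that these marker differences had in the dip was not tested. In bulk libraries, fewer cells of a type and less RNA per cell cannot be told apart.

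The 2 PGC libraries of 36 hpf also differed. Replicate 1 had the lower germ cell marker sum and a sum of 9302 CPM over 14 markers of yolk syncytial layer, gut and liver, against 76.0 CPM in replicate 2. The soma libraries of 36 hpf differed in the same direction, with 8394 and 170.2 CPM over these markers. The muscle sum was also lower in replicate 1 of both, at 1148 and 3391 CPM in PGCs and 1273 and 6219 CPM in soma. Among the members, 145 of 150 stood higher in replicate 2, with a median ratio of 2.70 between the replicates. Over all 7834 genes 63.0% stood higher in replicate 2, and the median ratio was 1.21. The rule ranked members on the mean of these 2 libraries, so a high value in 1 of them can raise the dip. When replicate 1 of 36 hpf was left out of the rule, 105 of the 150 members were chosen again. Without replicate 2 there were 82, and without replicate 1 or replicate 2 of 24 hpf there were 98 and 101.

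**Figure D1:**
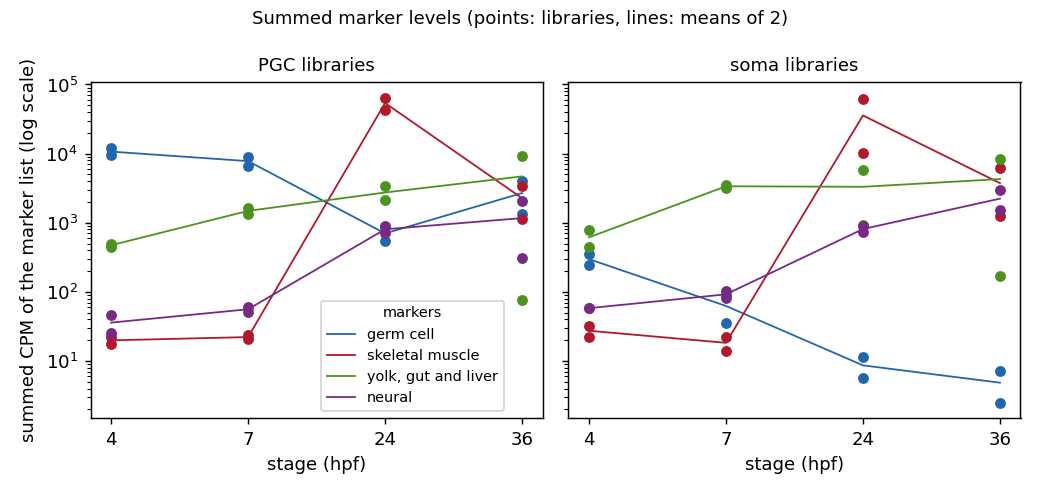
Summed CPM (log scale) of 4 marker lists against stage in PGC libraries (left) and soma libraries (right), with a point for each library and a line through the means of 2. In PGC libraries the muscle sum reaches 43321 and 64606 CPM at 24 hpf, where the germ cell sum is lowest at 856 and 546 CPM.

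The members were, by choice, lower in both PGC libraries of 24 hpf than before and after. The median member stood at 41.3 and 43.8 CPM at 7 hpf, 6.94 and 6.04 CPM at 24 hpf, and 18.8 and 48.3 CPM at 36 hpf. The share of counts taken by all members together was 1.58% and 1.90% in the libraries of 7 hpf, 0.273% and 0.217% in those of 24 hpf, and 0.640% and 1.60% in those of 36 hpf. The level at 7 hpf was a median of 5.99-fold that of 24 hpf (range 3.16 to 250), and the level at 36 hpf a median of 4.74-fold (range 3.21 to 56.2). On this scale the median gene of like expression moved the same way by less. Over the 7834 genes, the median change in log2(mean CPM + 1) was -0.77 from 7 to 24 hpf and 0.55 from 24 to 36 hpf, and for the members it was -2.33 and 2.02. With TMM scaling, which sets libraries to a common level over most genes, the medians over genes with at least 10 CPM became -0.50 and -0.11, and those of the members -2.03 and 1.29. On that scale 128 of the 150 members remained in the order, and the share of all such genes in the order went from 39.1% to 14.7%.

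**Figure D2:**
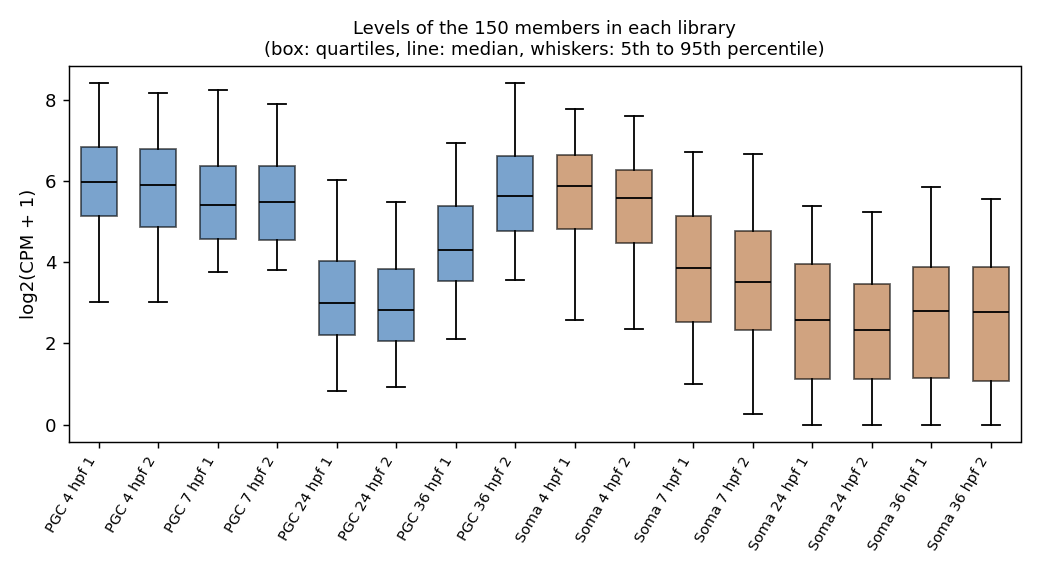
Levels of the 150 members as log2(CPM + 1) in each of the 16 libraries, PGCs in blue and soma in brown, with boxes for the quartiles and whiskers from the 5th to the 95th percentile. Medians in PGCs go from 41.3 and 43.8 CPM at 7 hpf to 6.94 and 6.04 CPM at 24 hpf, and those in soma are at or below 5.97 CPM from 24 hpf on.

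The dip of the members ranged from 1.64 to 3.38 on the log2 scale, with a median of 1.87. The last members were *acaca*, which encodes the acetyl-CoA carboxylase of fatty acid synthesis, with a dip of 1.6370, and *dnase2*, which encodes a lysosomal nuclease, with 1.6367. The first genes outside were *stard3nl* at 1.6355 and *lrrk1* at 1.6306, so that the end of the list separates genes with nearly equal values. A name was available for 144 members and 6 had none. Their median effective length was 2245 bases, beside 2137 bases for the 7834 genes. In 136 members every expected count was whole (to within 1e-06), and in 14 it was divided with other genes in at least 1 library. Among the latter were *hsp90aa1*, *znf991* and *ftr90*, whose values are uncertain because near-identical genes can share their reads.

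Germ plasm and piRNA genes gave the lists with the most members. Of 18 genes on a list of germ plasm and PGC RNA regulators that reached 10 CPM in both PGC libraries of 7 hpf, 13 followed the order and 8 were members. Of 11 such genes of the piRNA pathway, 10 followed it and 8 were members. The share over all 7834 genes is the 39.1% given above for the order and 1.91% for membership. These 16 genes were chosen by the same PGC values as the rest, and nothing is read from the counts.

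Compared per gene length within libraries, in TPM (transcript abundance scaled for gene length and depth), 4 germ plasm genes stood highest among the members at 7 hpf. They were *tdrd7a* with 277 and 547 TPM, *nanos3* with 371 and 424 TPM, *ddx4* with 238 and 372 TPM and *dnd1* with 159 and 231 TPM. The ranges of the first 3 overlapped. At 36 hpf *ddx4* was at 90.3 and 402 TPM and *nanos3* at 74.7 and 327 TPM, and these 2 were the highest members by mean.

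*ddx4* (ENSDARG00000014373), the germ cell RNA helicase, stood at 2451 and 3062 CPM in PGCs of 4 hpf, 1760.1 and 2149.5 CPM at 7 hpf, 273 and 208 CPM at 24 hpf, and 645 and 1799.99 CPM at 36 hpf. In soma it was at 130 and 116 CPM at 4 hpf and at most 4.74 CPM from 24 hpf on. Its PGC libraries stood above every soma library of the same stage throughout, also at 24 hpf. *nanos3* (ENSDARG00000068255), needed for PGC maintenance, went from 843 and 880 CPM at 7 hpf to 135 and 64.3 CPM and then to 166 and 518 CPM. *dnd1* (ENSDARG00000022813), which guards germ cell mRNAs from microRNAs, went from 791 and 1042 CPM to 70.7 and 44.3 CPM and then to 74.1 and 310 CPM. Its lower library of 36 hpf lay only just above the higher one of 24 hpf. *tdrd7a* (ENSDARG00000032808), a Tudor protein of germ granules, stood 15.3-fold higher at 7 than at 24 hpf and 3.41-fold higher at 36 than at 24 hpf. *dazl*, a translational regulator, was at 137 and 56.1 CPM, 35.7 and 21.6 CPM and 61.2 and 139 CPM. All 5 regained less in replicate 1 of 36 hpf than in replicate 2.

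*rgs14a*, a regulator of G protein signalling, had the largest difference between 7 and 24 hpf. It was at 1067 and 1106 CPM at 4 hpf, 298 and 119 CPM at 7 hpf, 0.649 and 1.02 CPM at 24 hpf, and 1.18 and 11.1 CPM at 36 hpf. The level of 36 hpf rested on replicate 2. *tdrd6*, a Tudor protein that organises germ plasm, was at 65.4 and 139 CPM, 11.6 and 12.1 CPM, and 62.6 and 206 CPM over the 3 later stages. *elavl2*, an RNA-binding protein gene, was at 23.1 and 19.8 CPM, 4.02 and 3.69 CPM, and 17.4 and 87.8 CPM.

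In the piRNA pathway, 2 members exceeded their 7 hpf level at 36 hpf in both libraries, and no other member did so (2 of 150, beside 25.7% of the 7834 genes). *piwil1* (ENSDARG00000041699), the Piwi protein known as Ziwi, was at 56.1 and 35.2 CPM at 7 hpf, 14.3 and 10.3 CPM at 24 hpf, and 91.4 and 301 CPM at 36 hpf. *tdrd9*, a Tudor domain helicase, was at 62.7 and 37.8 CPM, 19.7 and 10.9 CPM, and 102 and 298 CPM. In 41 of 150 members both libraries of 7 hpf were above both of 36 hpf (36.8% of the 7834 genes). *tdrd1*, the scaffold that binds Piwi proteins, had the second largest dip of all members, with 35.5 and 57.3 CPM, 2.86 and 5.98 CPM, and 26.4 and 84.7 CPM. *asz1* and *gpat2*, which act at mitochondria in the piRNA pathway of mice, stood 11.0-fold and 6.44-fold higher at 7 than at 24 hpf. *tdrd5*, *tdrd15* and *ddx43* had 5.40-fold, 4.21-fold and 5.28-fold higher levels at 7 than at 24 hpf, and 11.0-fold, 8.01-fold and 5.84-fold higher levels at 36 than at 24 hpf. *ddx43*, whose mouse counterpart is a helicase of the pathway, was the one of them with over 80 CPM in both soma libraries of 7 hpf (195 and 81.5 CPM).

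Genes of these 2 lists outside the members show what the order leaves out. *igf2bp3* and *celf1*, RNA-binding protein genes used widely in embryos, did not follow it, with *celf1* at 148 and 111 CPM at 7 hpf, 145 and 145 CPM at 24 hpf and 97.1 and 117 CPM at 36 hpf. *piwil2* followed the order with a dip of 1.45 and *gtsf1* with one of 1.63, the latter just short of the list. *buc*, the organiser of germ plasm in the oocyte, was at 27.8 and 24.7 CPM at 7 hpf and at 0.519 and 2.03 CPM at 24 hpf. It stood at 0.423 and 11.3 CPM at 36 hpf, so it overlapped its 24 hpf values.

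**Figure D3:**
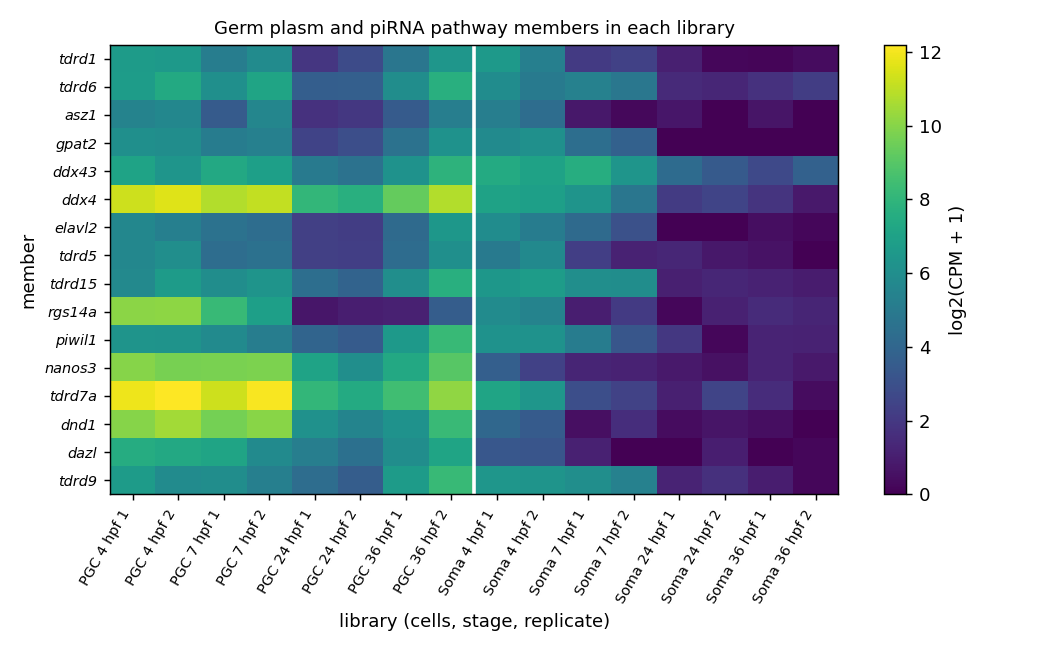
Levels of the 16 members on the germ plasm and piRNA pathway lists, as log2(CPM + 1), in each library (columns) with genes in the order of their dip (rows). The PGC columns of 24 hpf are darker than those of 7 and 36 hpf, and the soma columns of 24 and 36 hpf are at or below 4.74 CPM for all of these genes but *ddx43*, which is at 18.5 and 10.1 CPM at 24 hpf and 5.54 and 12.7 CPM at 36 hpf.

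The largest dip was that of *add3* (ENSDARG00000056250), which encodes an adducin, a protein that joins actin to the membrane skeleton. It was at 31.0 and 33.8 CPM in PGCs of 4 hpf, 192 and 115 CPM at 7 hpf, 5.32 and 3.81 CPM at 24 hpf, and 30.9 and 83.4 CPM at 36 hpf. In soma it was at 760 and 550 CPM at 7 hpf, above both PGC libraries, and at 4.34 and 1.48 CPM at 24 hpf. *skilb* (ENSDARG00000022904), a corepressor of Smad proteins in TGF-beta signalling, had a like course in both cell types. It was at 81.6 and 42.5 CPM, 3.76 and 1.14 CPM and 17.7 and 35.6 CPM in PGCs from 7 to 36 hpf, and at 91.7 and 70.7 CPM, 6.75 and 5.04 CPM and 11.3 and 17.0 CPM in soma.

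The other members with the largest dips were *specc1* (a cytoskeletal cytospin), *prkch* (a protein kinase C), *stk31* (a kinase gene with a Tudor domain, expressed in mouse germ cells), *rbm44* (an RNA-binding protein gene of mouse germ cells), *tdrd6b* (a further Tudor domain gene), *inka1b* (an inhibitor of Pak4 kinase), *hinfp* (a transcription factor of histone H4 genes), *caprin2* (an RNA-binding protein gene), *zgc:173742* and *zgc:103482*. Their dips lay between 2.51 and 2.74. *specc1* was at 46.9 and 44.2 CPM at 7 hpf, 6.23 and 5.72 CPM at 24 hpf, and 19.7 and 80.5 CPM at 36 hpf. *caprin2* was the most highly counted of these at 7 hpf, at 166 and 234 CPM, and was at 13.4 and 8.90 CPM at 24 hpf.

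The other 134 members lay outside the germ plasm and piRNA lists. *lcp1* (L-plastin, an actin-bundling protein of leukocytes) was at 780 and 388 CPM in PGCs of 7 hpf, 34.7 and 121 CPM in soma of that stage, and 4.93 and 10.9 CPM in PGCs of 24 hpf. At 36 hpf it stood at 18.7 and 47.8 CPM in PGCs. It also stands on the blood marker list, which summed to 791 and 396 CPM in the PGC libraries of 7 hpf. Of its 10 markers only *lcp1* reached 10 CPM in both of these libraries, and 3 were at 0 in both. Over the 4 libraries of 7 hpf *lcp1* had the same order as the sum of the epidermis and enveloping layer markers given above. The 2 PGC libraries of 24 hpf had the same order too, and those of 36 hpf the opposite one. From 24 to 36 hpf this sum went from 7194 and 14563 CPM to 5195 and 2657 CPM in PGCs, while *lcp1* rose by choice. The part of those cells in the level of *lcp1* was not tested. *hsp90aa1*, a chaperone gene, was at 381 and 859 CPM at 7 hpf, 189 and 129 CPM at 24 hpf and 577 and 642 CPM at 36 hpf. *nanog*, a homeobox gene of zygotic genome activation, was the sole pluripotency factor among the members, out of 12 that reached 10 CPM. It was at 174 and 89.0 CPM at 7 hpf, 1.04 and 2.67 CPM at 24 hpf, and 5.16 and 14.1 CPM at 36 hpf. *zar1*, an oocyte gene, was at 12.3 and 15.7 CPM, 0.779 and 0.636 CPM and 2.12 and 6.58 CPM. Both remained below their 7 hpf values at 36 hpf. The Mediator subunit gene *med6*, the bromodomain gene *brd2b* and 6 zinc finger genes (*znf326*, *znf991*, *zbtb5*, *znf1003*, *znfx1* and *znf1155*) had dips from 1.71 to 2.30. No member came from the lists of cell cycle genes (52 at this level), splicing factors (55), translation factors (29) or ribosomal protein genes (83). The share of members over all 7834 genes was 1.91%, and nothing is read from these counts of 0. The dip order itself was followed by 10 of the cell cycle genes, 30 of the splicing factors, 5 of the translation factors and 3 of the ribosomal protein genes. The share over all 7834 genes was 39.1%. Among other lists without a member, 15 of 21 transcription machinery genes and 0 of 20 cytoskeleton genes followed it. Nothing is read from these counts either.

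The members had different histories before the dip. In 76 of 150 both PGC libraries of 4 hpf were above both of 7 hpf (32.8% of the 7834 genes), and in 33 both libraries of 7 hpf were above both of 4 hpf (31.8%). The first group included *nanog*, *ddx4*, *dazl*, *rgs14a*, *piwil1*, *tdrd1* and *zar1*, and the second *add3*, *skilb*, *lcp1*, *hsp90aa1*, *med6* and *acaca*. In 140 members both libraries of 4 hpf were above both of 24 hpf (61.3%). At 4 hpf, 130 members had at least 10 CPM in both soma libraries, so that most were also present outside PGCs in the blastula. This is not particular to them. The median member was at 58.1 and 47.2 CPM in these soma libraries, and the median of the 7834 genes at 54.9 and 46.7 CPM. Median levels of the first group were 85.7 CPM in PGCs and 67.1 CPM in soma at 4 hpf, and 37.2 and 8.35 CPM at 7 hpf. In the second group they were 27.7 and 17.9 CPM at 4 hpf, and 70.18 and 27.0 CPM at 7 hpf. In both groups the soma median lay below that of PGCs at these stages.

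Of the stages the rule used, 24 hpf had the fewest members with both PGC libraries above both soma libraries. It also had the lowest such share of the 7834 genes, and the rule chose members for low PGC values at that stage. By mean CPM alone, the PGC level was the higher one in 140 members for 7 hpf, 102 for 24 hpf and 148 for 36 hpf. The 7834 genes were not counted in this way, and nothing is read from these counts. At 7 hpf both PGC libraries were above both soma libraries in 127 of 150 members (46.2% of the 7834 genes) and below them in 6 (20.9%). At 24 hpf this held for 66 members (10.8%) and the opposite for 13 (18.5%). At 36 hpf it held for 138 (43.7%) and the opposite for 1 (13.0%). The median difference between PGCs and soma in log2(mean CPM + 1) was 1.66 at 7 hpf, 0.30 at 24 hpf and 2.07 at 36 hpf. Over the 7834 genes it was 0.30, -0.13 and 0.30.

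Comparisons that the choice of members did not use were tested with edgeR's quasi-likelihood test on 20536 genes. A gene was called at a Benjamini-Hochberg adjusted p under 0.05 over all of them and a log2 fold change past 1.5. All 150 members passed the filter on low counts, which their PGC level at 7 hpf alone would secure.

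At 4 hpf, before the dip, most members were not called between PGCs and soma. Both PGC libraries were above both soma libraries in 45 of 150 members (18.4% of the 7834 genes) and below them in 10 (17.8%). Called higher in PGCs were 4 of 150 members, beside 9 of all genes tested (0.0438%, these 4 included), and none was called lower (0% of all genes). Among the genes with at least 10 CPM in both PGC libraries of 7 hpf, 0.102% were called higher and 0% lower, with a median of -0.03. By DESeq2, 7 members were called higher and 0 lower, beside 0.228% and 0.0364% of the 10980 genes to which it gave an adjusted p. At an unadjusted edgeR p under 0.05 and past the same fold change, 8 members were higher and 1 lower, beside 1.96% and 1.77% of all genes. *nanos3* was at 1007 and 833 CPM in PGCs and 12.0 and 4.13 CPM in soma, a log2 fold change of 6.86 ± 0.58 (SE, n = 2 per group, edgeR adjusted p = 0.000167). *dnd1* was at 1014 and 1472 CPM against 15.9 and 10.2 CPM (6.58 ± 0.72, edgeR adjusted p = 0.00154). *tdrd7a* (5.28 ± 0.74, edgeR adjusted p = 0.0144) and *ddx4* (4.47 ± 0.60, edgeR adjusted p = 0.0116) followed, and in all 4 genes the PGC and soma libraries were far apart. Without replicate 2 of PGCs the calls of *ddx4* and *tdrd7a* were lost, and with either replicate of soma left out *nanos3* alone of the 4 kept its call. The log2 fold change of *ddx4* lay between 4.17 and 4.74 under all 13 alternatives.

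The other germ plasm members did not pass. *rgs14a* had a log2 fold change of 4.41 ± 0.79 (edgeR adjusted p = 0.0985) and *dazl* of 4.31 ± 0.80 (edgeR adjusted p = 0.128), with PGC libraries far above soma in both. Of the whole germ plasm list, 6 of 21 genes were called higher and 0 lower, the non-members *ca15b* and *golga3* included. In the piRNA pathway 0 of 14 were called in either direction. *piwil1* was at 79.3 and 75.2 CPM in PGCs and 73.7 and 72.9 CPM in soma (0.04 ± 0.67), a difference within the spread. *nanog*, at 2087 and 1600.3 CPM in PGCs and 2086 and 1924 CPM in soma, did not differ beyond the spread either (-0.17 ± 0.49). The smallest log2 fold changes were those of *arhgef2a*, with at most 3 counts in both PGC libraries, *add3* (-0.84 ± 0.44, edgeR adjusted p = 0.945) and *lrmp* (-0.71 ± 0.69, edgeR adjusted p = 1.0), needed for pronuclear fusion in the zebrafish egg. Over all members the median was 0.15 (0.13 with genes at the floor of 3 counts set to their bound), beside 0.00 for all genes.

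From 4 to 7 hpf in soma, 53 of 150 members were called lower (9.37% of all genes tested) and 8 were called higher (9.29%), while the other members did not pass. The members' median log2 fold change was -1.11, beside 0.00 for all genes. Among the tested genes with at least 10 CPM in both PGC libraries of 7 hpf, 11.5% were called lower and 15.9% higher. The median of these genes was 0.29. *nanog* fell from 2086 and 1924 CPM to 75.6 and 33.0 CPM (-4.61 ± 0.57, edgeR adjusted p = 0.000165). *specc1* (-4.35 ± 0.71, edgeR adjusted p = 0.000768), *prkch* (-6.07 ± 0.82, edgeR adjusted p = 0.00027) and *tdrd1* (-3.56 ± 0.65, edgeR adjusted p = 0.00165) fell too. On the germ plasm list 12 of 21 genes fell and 0 rose, with *nanos3*, *dnd1*, *tdrd7a*, *dazl* and *rgs14a* among the members that fell. The calls of *nanos3*, *dnd1* and *dazl* were each lost without replicate 1 of soma at 4 hpf, and without some of the other libraries. On the piRNA list 5 of 14 fell and 0 rose.

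The members that rose in soma belonged to other groups. *add3* rose from 55.3 and 57.9 CPM to 760 and 550 CPM (4.11 ± 0.49, edgeR adjusted p = 0.000131), *skilb* by 2.72 ± 0.54 (edgeR adjusted p = 0.00277) and *lcp1* by 3.17 ± 0.67 (edgeR adjusted p = 0.00392). *arhgef2a* and *hsp90aa1* rose as well. The call of *lcp1* was lost without replicate 2 of soma at 7 hpf, and that of *hsp90aa1* without that library or either one of soma at 4 hpf. Without replicate 1 of soma at 4 hpf, 5 members were called higher in place of 8. Scaling by library totals in place of TMM moved the median of all genes by -0.57 in this comparison, and the members called lower then came to 70, with 7 higher.

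From 7 to 24 hpf, the interval of the dip in PGCs, 68 of 150 members were called lower in soma (8.76% of all genes tested) and 3 higher (22.1%), while the other members did not pass. The median log2 fold change of the members was -1.46 (-1.42 with genes at the floor set to their bound), and that of all genes tested was 0.49. Among the tested genes with at least 10 CPM in both PGC libraries of 7 hpf, 17.7% were called lower and 9.23% higher, and their median was -0.47. The rule did use the PGC libraries of 24 hpf, which held the somatic marker sums given above. The part of those markers in these counts was not tested.

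Some members left soma almost entirely. *gpat2* went from 20.3 and 12.8 CPM to no count in either library of 24 or 36 hpf, and was at least 26.6-fold lower at 24 hpf, taking 3 counts as the upper limit in the shallower library (edgeR adjusted p = 6.9e-05). *elavl2* was likewise at least 14.8-fold lower (edgeR adjusted p = 0.000171) and *eif4e1b*, an oocyte-type cap-binding factor, at least 12.7-fold lower (edgeR adjusted p = 0.000229). *add3* fell by 8.06 ± 0.60 on the log2 scale (edgeR adjusted p = 5.78e-06) and *skilb* by 3.99 ± 0.58 (edgeR adjusted p = 0.000262). Both were at or below 6.75 CPM in every PGC and soma library of 24 hpf.

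Of the germ plasm list 7 of 21 genes fell from 7 to 24 hpf in soma and 0 rose, and of the piRNA list 9 of 14 fell and 1, the non-member *tdrkh*, rose. The shares given above for genes with at least 10 CPM in PGCs of 7 hpf were 17.7% lower and 9.23% higher. *tdrd15* went from 65.0 and 61.1 CPM to 1.12 and 1.48 CPM (-5.75 ± 0.58, edgeR adjusted p = 3.5e-05). *tdrd9* (-5.04 ± 0.64, edgeR adjusted p = 0.00012), *piwil1* (-4.11 ± 0.82, edgeR adjusted p = 0.00193) and *ddx43* (-3.52 ± 0.56, edgeR adjusted p = 0.000488) also fell. *nanos3*, *dnd1* and *tdrd7a* were already at or below 6.62 CPM in soma at 7 hpf, and their values of -1.30 ± 0.70, -1.46 ± 0.95 and -1.05 ± 0.71 did not pass (edgeR adjusted p = 0.152, 0.237 and 0.253).

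**Figure D4:**
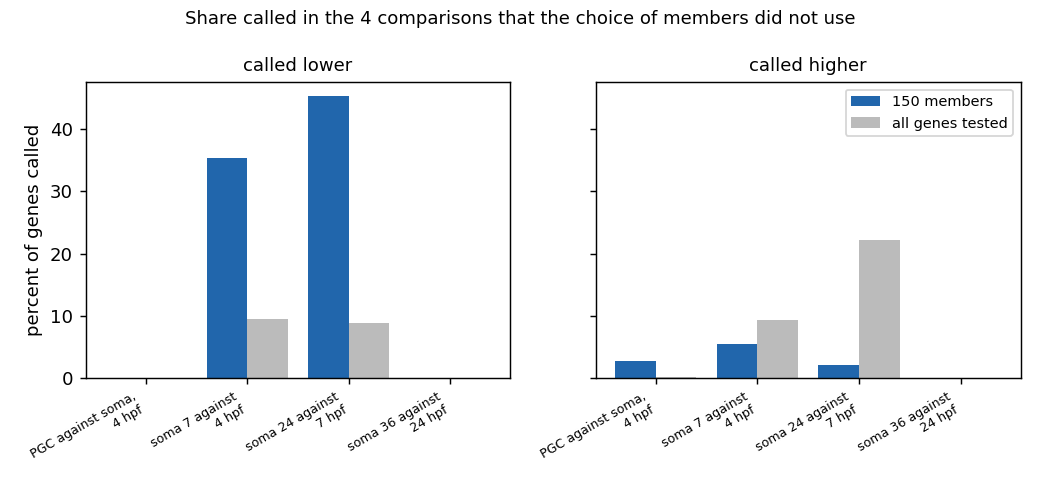
Percent of the 150 members (blue) and of all 20536 genes tested (grey) called lower (left) and higher (right) in the 4 comparisons that the choice of members did not use. In soma, 53 members were called lower from 4 to 7 hpf and 68 from 7 to 24 hpf, beside 9.37% and 8.76% of all genes.

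Of the 3 members called higher in soma over this interval, 2 are described here. The rule chose only genes that fell in PGCs over this interval. Any member that rose in soma was therefore opposed to its course in PGCs by that choice, and nothing is read from it. *cry1*, a repressor of the circadian clock, went from 0.144 and 0 CPM to 3.86 and 7.26 CPM in soma, at least 6.31-fold higher (edgeR adjusted p = 0.00142), and from 13.9 and 38.1 CPM to 4.80 and 9.92 CPM in PGCs. *adcy5*, an adenylate cyclase gene, named here because its call was seen, had a log2 fold change of 1.82 ± 0.42 (edgeR adjusted p = 0.00453). *ttc7a*, which also ranked among the largest fitted changes, was at 0.863 and 0 CPM and then 2.89 and 1.48 CPM and did not pass (edgeR adjusted p = 0.124).

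From 24 to 36 hpf, the interval of the rise in PGCs, soma showed no called change. By edgeR 0 of 150 members were called higher and 0 lower, as were 0% of all genes tested in each direction. At an unadjusted p under 0.05 and past the same fold change, 8 members were higher and 4 lower, beside 2.85% and 3.79% of all genes. DESeq2 called 4 members higher and 1 lower, beside 0.526% and 1.35% of the 16554 genes with an adjusted p. The median change of the members was 0.07 (0.01 with genes at the floor set to their bound) beside 0.00 for all genes. The largest fitted changes were those of *ric3*, *ftr90* and *ccdc106b*, which had no count in soma of 24 hpf and at most 1.48 CPM at 36 hpf, so no fold is given. Among members above the floor of 3 counts at both stages, the largest was that of *mkrn1*, named here because its value was seen. It went from 2.09 and 2.52 CPM to 33.1 and 19.8 CPM in soma (3.31 ± 0.50) and did not pass (edgeR adjusted p = 0.155). Without replicate 2 of soma at 36 hpf, 1 member was called higher.

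The order that chose the members in PGCs was also counted in soma. In 33 of 150 members both soma libraries of 24 hpf were below both of 7 and both of 36 hpf. Of the 66 members with at least 10 CPM in both soma libraries of 7 hpf, 21 had this order, or 31.8%, beside 17.5% of all 6639 genes at that level. Over all 150 members, the count of 33 became 55 without replicate 1 of soma at 24 hpf. Without replicate 2 of soma at 36 hpf it became 54 of 150. The share of all genes in this order was not counted with a library left out, so nothing is read from these rises. In soma the dip had a median of 0.62 and a highest value of 2.18 among these 33. *skilb* had 1.14 and *add3* 1.00 in soma, against 2.9999 and 3.38 in PGCs. *tdrd6* had 0.62, between levels of 1.77 and 1.48 CPM at 24 hpf and 2.34 and 3.72 CPM at 36 hpf.

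The members were also grouped by fixed limits of 1 and 10 CPM on their soma levels at the late stages. The 7834 genes were not counted by these limits, so nothing is read from the group sizes. In 16 members all 4 soma libraries of 24 and 36 hpf were below 1 CPM, among them *asz1*, *tdrd6b*, *rbm44*, *gpat2*, *elavl2*, *nanog*, *dnd1*, *eif4e1b*, *ccdc106b* and *zar1*. Their median in PGCs was 25.9 CPM at 7 hpf, 2.72 CPM at 24 hpf and 20.5 CPM at 36 hpf. In 30 members all 4 of these soma libraries had at least 10 CPM, among them *lcp1*, *hsp90aa1*, *med6*, *zbtb5*, *znf1003* and *acaca*. Their median in PGCs was 104 CPM, 24.8 CPM and 92.9 CPM, and in soma 37.0 CPM, 21.3 CPM and 29.7 CPM. The median dip was 1.95 in the first group and 1.79 in the second. The 104 members between these limits had a median dip of 1.92.

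**Figure D5:**
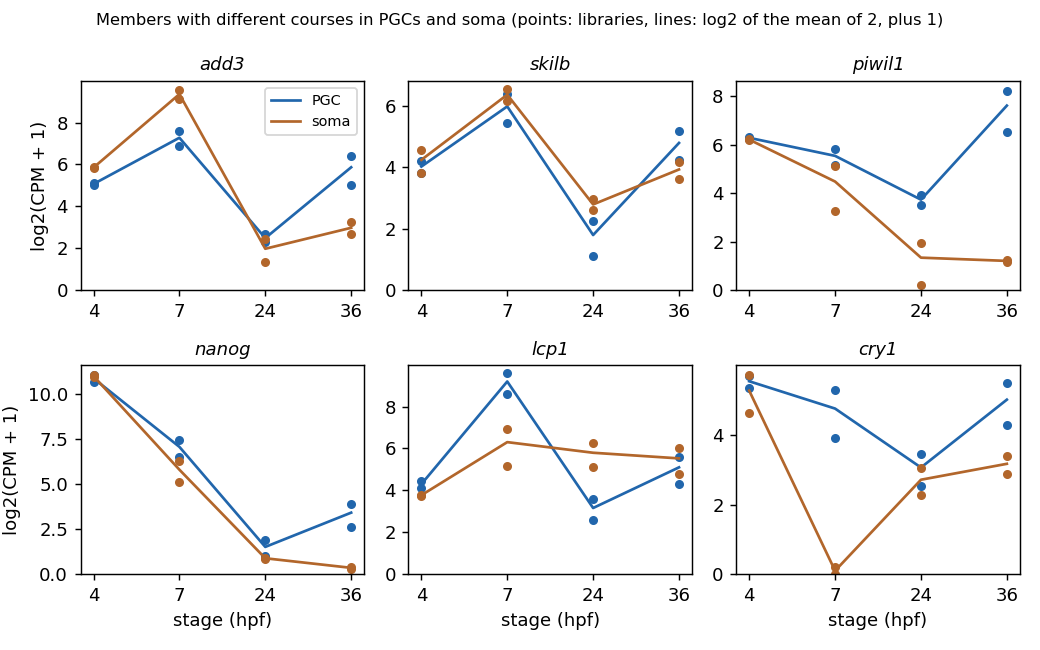
Levels of 6 members as log2(CPM + 1) against stage in PGCs (blue) and soma (brown), with a point for each library and lines through the log2 of the mean CPM plus 1. *add3* and *skilb* peak at 7 hpf in both cell types, and *piwil1* is highest in PGCs at 36 hpf (91.4 and 301 CPM). *nanog* falls from 4 to 24 hpf in both. By 36 hpf it regains little in PGCs, and in soma it stays below 1 CPM. *lcp1* peaks in PGCs at 7 hpf, and *cry1* falls in PGCs while it rises in soma from 7 to 24 hpf.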

How the data were processed

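Total RNA libraries of sorted cells, made with a SMARTer pico kit that marks strand, were sequenced. Per the labels and the study's methods, reads were trimmed with Trim Galore, aligned to danRer10 with STAR and quantified with RSEM; the strand setting of the counting is not given in the sources used here. The authors deposited expected counts (RSEM estimates, not normalised), TPM values and effective lengths for each gene. The 92 spike-in rows were left out. Groups and replicate numbers were taken from the titles; a single label of soma 24 hpf replicate 1 names PGCs, against its title and cell type, and it was used as soma. The members and gene lists were chosen with earlier results of these data known.

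For the tests, expected counts were rounded to whole numbers, filtered with filterByExpr (20536 genes kept), normalised by TMM and fitted over all 16 libraries with a factor of 8 groups (edgeR 4.0.16, R 4.3.3). SE is the log2 fold change over the root of F. Precision is limited by depth for members with few counts. Named were the 15 members with the largest dips, the 5 highest in PGCs of 7 hpf, every member of a list, the 3 largest and 3 smallest changes at 4 hpf and from 7 to 24 hpf in soma, the 3 largest from 24 to 36 hpf, and ranks 149 to 152. Symbols come from a table of Ensembl identifiers (26791 named, 1 of these from a supplement), in lower case. Alternatives were DESeq2 1.42.0, other filters and scalings, the 4 libraries alone, a replicate block, limma 3.58.1 on log2 of TPM with 1 or 0.1 added, and leaving out each library. The fit was tested on simulated data. Columns of other samples were not used, and 1 member that the naming rule selects is not reported here.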

Additional observations from a re-analysis of the deposited data

Results flagged for a closer look

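Some named members moved in opposite directions in PGCs and soma in all libraries of the stages compared; each difference between the cell types was not tested, since the rule chose the direction in PGCs. From 7 to 24 hpf, while all were lower in PGCs at the later stage, the soma change in log2(mean CPM + 1) was 2.61 for *cry1*, 1.16 for *specc1*, 1.15 for *ttc7a* and 0.63 for *acaca*. From 24 to 36 hpf, while all were higher in PGCs at the later stage, the soma change was -0.92 for *ddx4*, -0.81 for *tdrd9*, -0.75 for *tdrd5*, -0.53 for *nanog*, -0.44 for *stk31* and -0.34 for *inka1b*. Of these soma changes, that of *cry1* passed the edgeR test. The soma levels of the second set were at or below 7.23 CPM at both stages. Over all members, both soma libraries of 24 hpf were above both of 7 hpf in 13 of 150, beside 30.1% of the 7834 genes. They were above both of 36 hpf in 12 of 150, beside 17.2%. The rule chose the members for a fall and then a rise in PGCs, and the 7834 genes were not chosen so. Nothing is therefore read from these shares, and the named soma changes are given as descriptions.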

How the results depend on the processing

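The counts of called members kept within 1.5 times of those given under most alternatives. At 4 hpf, 4 members were called higher in PGCs, and DESeq2 and no filter each gave 7. No label says that the replicate numbers pair libraries. The differences between replicates 1 and 2 in PGCs and in soma correlated across genes at 0.24, 0.08, 0.18 and 0.28 at 4, 7, 24 and 36 hpf, so the numbers were not taken as pairs at all stages. With the replicate block, 2 members were called at 4 hpf (*ddx4* and *tdrd7a* were not), and in soma from 24 to 36 hpf 1 was called higher; the block moved no other count past 1.5 times. In soma from 7 to 24 hpf, limma on log2(TPM + 1) gave 0 higher and 43 lower, and on log2(TPM + 0.1) gave 1 higher, in place of 3 and 68. In soma from 24 to 36 hpf, DESeq2 gave 4 higher and 1 lower, no filter 8 higher and 2 lower, and limma on log2(TPM + 1) 1 higher, in place of 0. The cause of these differences was not tested. Leaving out each library in turn gave 1 to 4 members higher at 4 hpf. In soma it gave 5 to 10 higher and 39 to 52 lower from 4 to 7 hpf, 2 to 4 higher and 49 to 67 lower from 7 to 24 hpf, and 0 to 1 higher from 24 to 36 hpf. The dip order in soma held for 34 to 55 members. The rule chose again 82 to 118 of the members without a PGC library, 50 on TPM, where 3512 genes reached 10 in both libraries of 7 hpf, 118 on TMM scaling, 136 with CPM over all genes, and 127 and 109 with pseudocounts of 0.1 and 5. Called changes of named members were lost in 82 of 812 refits and reversed in 0. Members at a few counts are limited by depth.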
